A study of Camellia sinensis with 6 samples.

Results

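The KH-domain RNA-binding proteins of the tea plant (Camellia sinensis) were taken as the gene models whose family column in the deposited count table reads KH_1, which gave 40 of 40118 gene models. All 40 carry the KH domain in their deposited domain annotation, and 8 of them are loci outside the annotated gene set, which are given here by their coordinates. RNA sequencing was done on young shoots of the cultivar 'Zhonghuang 2', a genotype whose new leaves yellow in the cold, in 2 groups of 3 libraries. All plants shared a first month at 22 °C under fluorescent lamps (200 μmol per square metre and second, a 12 h photoperiod). The control, or high-temperature, group was then held at 26 °C in the light and 22 °C in the dark and gave green shoots. The low-temperature group was held at 18 °C in the light and 14 °C in the dark, in the other chamber, and both groups were sampled when its leaves had yellowed. The labels name no transgene or mutation. With 1 chamber per temperature, chamber and temperature cannot be told apart. Separate plants are not stated for the libraries of a group, so the p-values rest on a spread that may be technical only.

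The KH domain is a small fold that grips a short stretch of single-stranded RNA or DNA in a groove, and many proteins carry several copies in a row to bind longer targets. In plants such proteins act on messenger RNA after transcription, in splicing, choice of the polyadenylation site, stability and transport. The best known of them in Arabidopsis thaliana act on flowering. FLK promotes flowering by lowering the floral repressor FLC, PEPPER acts against FLK on FLC, and HEN4 helps to process the transcript of the floral identity gene AGAMOUS.

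At low temperature 12 of the 36 KH genes that could be tested rose and none fell (edgeR quasi-likelihood test, Benjamini-Hochberg adjusted p under 0.05 over all gene models). Of all 26767 gene models tested, 9.27% were called higher and 9.65% lower. The largest of the rises was in an FLK gene, 2.24-fold, followed by a HEN4 gene at 2.00-fold and a PEPPER gene at 1.88-fold. The changes were small, with a median of 0.74 on the log2 scale among the 12 and of 0.39 among the 36 tested, where the median of all tested gene models was -0.01. A positive log2 change was found in 30 of the 36, against 49.2% of all gene models. None of the 36 was called lower by DESeq2 either, which called 13 higher. Of all gene models DESeq2 called 2701 higher (10.1%) and 2666 lower. At an unadjusted p under 0.05 in edgeR, 19 KH genes were higher and 0 lower, against 4146 and 4382 of the 26767 gene models. At a change of at least 2-fold 2 were called higher, the FLK and the HEN4 gene, where this held for 1.76% of all gene models. Without low-temperature replicate 3, 8 KH genes were called higher, against 4.86% of all gene models. Of the 4 that were not tested, 3 had at most 5 counts in any library (Cha04g019980, Cha04g015030 and a HEN4 locus on sequence 2) and Cha03g018350 had 0 in all 6, which allows up to 3 counts, or 0.204 CPM (counts scaled to a common library size) in high-temperature replicate 1, where that floor was highest.

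**Figure D1:**
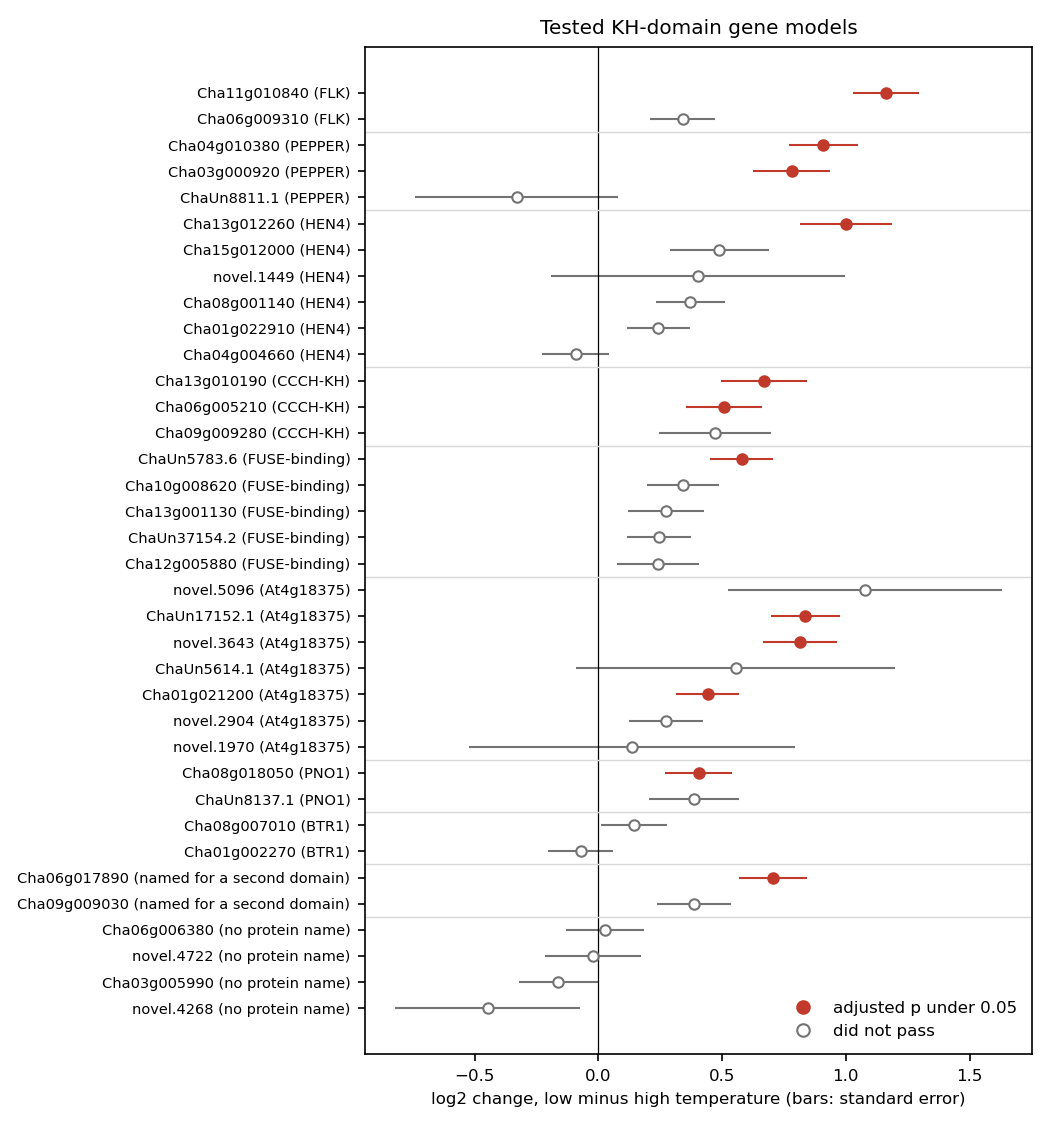
Log2 change from high to low temperature (horizontal axis, bars are standard errors) for the 36 tested KH genes, grouped by deposited protein name; filled points have an adjusted p under 0.05. All 12 filled points lie to the right of 0, from 0.41 to 1.16, and the unnamed genes at the bottom lie around 0.

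Most KH genes were well expressed. Among the 14111 gene models with a mean of at least 10 CPM, 14.4% were called higher and 12.6% lower. Of the 28 KH genes at that level, 12 were called higher and 25 had a positive log2 change. In 22 every low-temperature library lay above every high-temperature one. The shares of all gene models at that level with a positive change or with non-overlapping groups were not counted. Over all 36 tested KH genes 23 had non-overlapping groups with low temperature above and 0 with low temperature below, against 18.1% and 18.4% of all gene models. None of the 8 tested members under 10 CPM was called, and their standard errors reached 0.66 on the log2 scale.

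Summed over all 40 members, the level was 1804, 1533 and 1803 CPM in high-temperature replicates 1, 2 and 3 and 2260, 2316 and 2403 CPM in the low-temperature replicates. The lowest low-temperature sum was thus above the highest high-temperature sum. Per length, in FPKM (fragments per kilobase, scaled for library depth), the sums were 1353, 1093 and 1323 against 1714, 1738 and 1831. The 5 most abundant members held 42.9% of the summed KH level per length. These were, in order of their mean level, Cha13g010190 at 273 FPKM, Cha12g005880 at 110 FPKM, Cha06g005210 at 91.0 FPKM, Cha06g009310 at 90.5 FPKM and Cha13g001130 at 82.6 FPKM.

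High-temperature replicate 2 stood apart from the other libraries. In it 23 of the 36 tested KH genes had the lowest level of the group, against 6 in replicate 1 and 7 in replicate 3. The same count was not made over all gene models, so whether this is particular to KH genes was not tested. Summed over all gene models, CPM were 913283 in it, against 1033365 in replicate 1 and 1022002 in replicate 3. That sum follows from the scaling factor of each library (1.0976, against 0.9696 and 0.9805), so it is no separate measure of level. The mean chi-square per gene between it and the other high-temperature libraries was 24.6 and 21.3 over all gene models, against 5.27 between those other libraries. Without it 13 KH genes were called higher, 11 of them among the 12 called with all libraries, and the median of the tested KH genes was 0.33. Totals per library ran from 15202546 to 15642015 counts. In bulk tissue, fewer cells of a type and less RNA per cell cannot be told apart. The labels name young shoots. Markers of green leaf tissue were high in every library, with none of 40 at 0 in all libraries. They summed to 47343 to 65723 CPM at high and 41273 to 43046 CPM at low temperature. Of 36 tested green markers 16 were called lower and 2 higher. Without high-temperature replicate 2, 27 were lower. Without high-temperature replicate 1 or 3 or low-temperature replicate 2 or 3, 7 to 10 were lower. Without low-temperature replicate 1 or 2, 1 was higher. Vascular markers summed to 886.9 to 905.5 CPM at high and 920.4 to 994.7 CPM at low temperature (2 of 49 called higher and 2 lower). Without low-temperature replicate 2 none of them was called in either direction, 0 were lower without high-temperature replicate 1, and 1 was called in each direction without high-temperature replicate 3 or low-temperature replicate 1 or 3. Dividing-cell markers overlapped, from 9823 to 14921 against 13033 to 16937 CPM (2 of 35 higher, 3 lower), as did epidermal markers, from 2718 to 3191 against 2871 to 3278 CPM (3 of 24 higher, 4 lower). The dividing-cell list had 5 lower without high-temperature replicate 2 and 1 lower and 1 higher without low-temperature replicate 2 or 3, and 1 higher without high-temperature replicate 1 or 3. The epidermal list had 2 lower without low-temperature replicate 2. The part of these tissue differences in the KH levels was not tested.

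**Figure D2:**
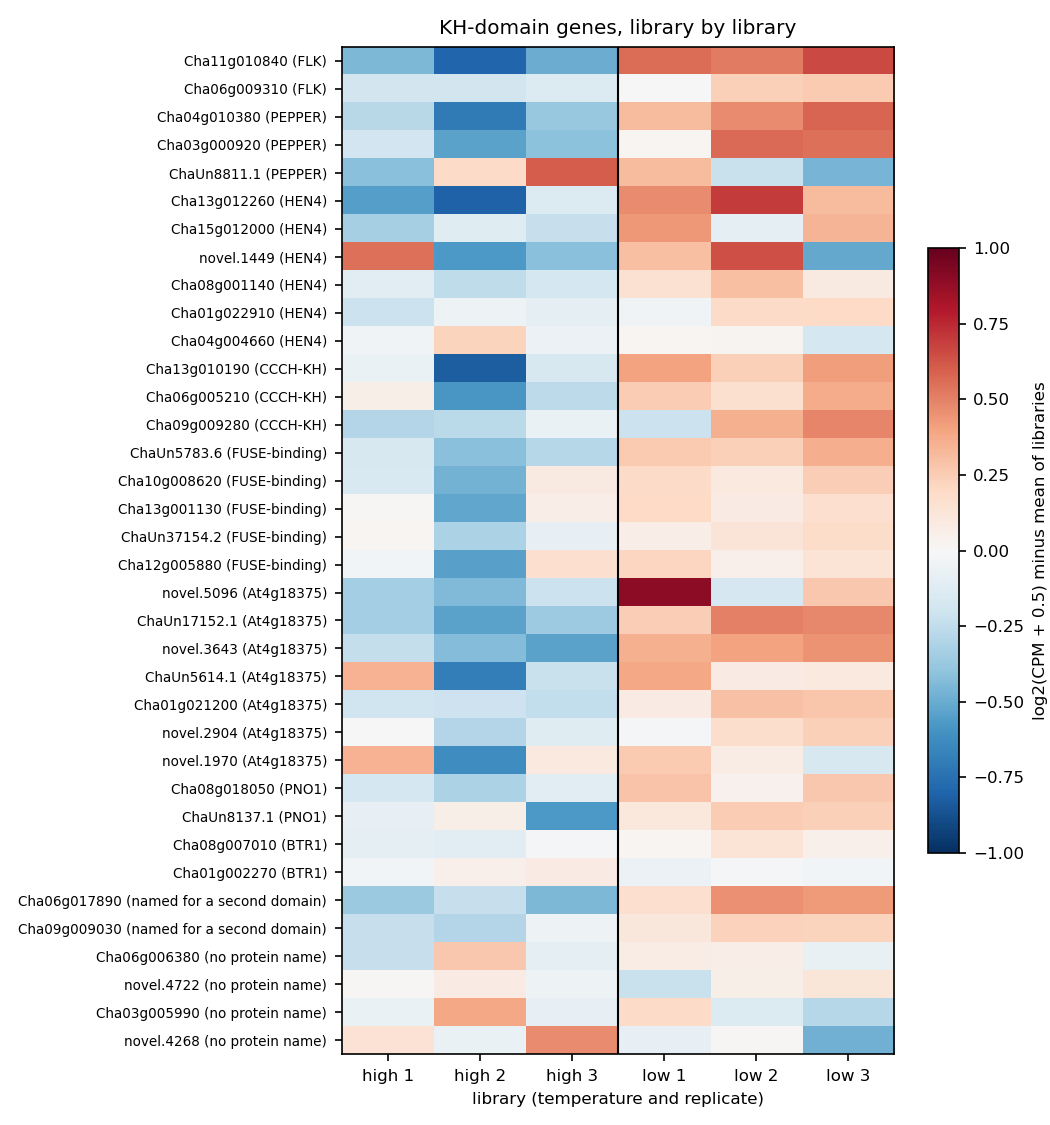
Level of each tested KH gene in each library, as log2(CPM + 0.5) minus the mean over the 6 libraries (colour, from -1 to 1), with rows grouped by protein name. Most rows turn from blue at high to red at low temperature. High-temperature replicate 2 is the bluest column, with the lowest level of its group in 23 of 36 genes (not counted over all gene models).

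Genes named for FLK, the flowering regulator, were 2 and both were tested. The first, Cha11g010840 (sequence 11, 82581949 to 82591374, minus strand), had 47.2, 36.9 and 45.4 CPM at high and 94.9, 92.6 and 102 CPM at low temperature. The groups were far apart, and the lowest library was high-temperature replicate 2. The rise was 1.16 ± 0.13 on the log2 scale (SE), with an adjusted p of 2e-05 in edgeR's quasi-likelihood test, and it was called in all 17 alternative settings. The second, Cha06g009310 (sequence 6, 100346500 to 100358040, plus strand), had 123, 122 and 126 CPM against 139, 164 and 167 CPM. Its groups did not overlap, but the log2 change of 0.34 ± 0.13 did not pass the test (edgeR adjusted p = 0.0774). It passed with DESeq2 and without high-temperature replicate 2 or low-temperature replicate 1. At high temperature Cha06g009310 was the more abundant of the pair per length, at 79.6 ± 1.93 against 31.4 ± 4.25 FPKM (SD, n = 3), and at low temperature the values were 101 ± 9.88 and 70.8 ± 3.89 FPKM. Cha11g010840 held 30.3%, 25.5% and 28.9% of the summed FLK level per length at high and 43.5%, 39% and 41% at low temperature. That share was larger by 12.9 percentage points at low temperature, with no overlap (exact two-sided permutation p = 0.1, the smallest that 3 against 3 libraries allow, and 0.167 adjusted over 5 such shares).

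PEPPER, which in Arabidopsis counters FLK, had 4 gene models by name. Cha03g000920 (sequence 3, 6948985 to 6955402, minus strand) rose from 67.1, 52.8 and 57.6 CPM to 78.0, 114 and 113 CPM. Low-temperature replicate 1 lay nearer to the high-temperature libraries than the other low-temperature libraries did. The log2 change was 0.78 ± 0.16 (edgeR adjusted p = 0.00207). Cha04g010380 (sequence 4, 86997363 to 87011294, minus strand) rose from 51.2, 37.9 and 47.7 CPM to 77.4, 86.5 and 93.3 CPM, a log2 change of 0.91 ± 0.14 (edgeR adjusted p = 0.000293). Together these genes carried nearly all of the PEPPER level. The gene model ChaUn8811.1, which also holds a plant domain of unknown function, stood at 2.63 ± 1.06 and 2.09 ± 0.751 CPM (SD, n = 3) with overlapping groups, and Cha04g015030 had 2 and 1 counts in a single library of each group and 0 in the rest. The share of Cha04g010380 in the PEPPER level was 40.2% ± 1.56 and 43.8% ± 2.84 (exact two-sided permutation p = 0.2, and 0.25 adjusted over 5 such shares).

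HEN4, a partner in the processing of AGAMOUS transcripts in Arabidopsis, is the name of 7 gene models, of which 6 were tested and 1 rose. Cha13g012260 (sequence 13, 99205262 to 99216190, minus strand) had 13.0, 10.8 and 17.6 CPM at high and 27.0, 31.6 and 24.2 CPM at low temperature. The lowest low-temperature library was above the highest high-temperature library. The log2 change was 1.00 ± 0.19 (edgeR adjusted p = 0.00122). It was among the weaker of the HEN4 genes, with 7.31% ± 1.87 of their summed level per length at high and 11.9% ± 1.04 at low temperature (exact two-sided permutation p = 0.1, and 0.167 adjusted over 5 such shares). The most abundant, Cha01g022910, had 77.0 ± 4.42 and 91.2 ± 8.37 CPM, a log2 change of 0.24 ± 0.13 that did not pass the test (edgeR adjusted p = 0.204). Cha04g004660 had 54.0 ± 6.16 and 50.6 ± 4.06 CPM, with overlapping groups and a log2 change of -0.09 ± 0.14. Cha08g001140 and Cha15g012000 had log2 changes of 0.37 ± 0.14 and 0.49 ± 0.20 with non-overlapping groups and edgeR adjusted p of 0.0719 and 0.0953. A HEN4 locus outside the annotated genes (sequence 4, 174663765 to 174668275, minus strand) stood at 0.988 ± 0.677 and 1.30 ± 0.673 CPM (SD, n = 3) with overlapping groups. Estimated changes of genes with this name thus ran from -0.09 to 1.00.

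Proteins that join a CCCH zinc finger to a KH domain are known in Arabidopsis as KHZ1 and KHZ2, which promote flowering and leaf senescence. In the tea plant 3 members are named for CCCH zinc finger proteins of rice, and 2 of them rose. Cha13g010190 (sequence 13, 84957215 to 84963186, minus strand), the most abundant of all KH genes, had 211, 125 and 198 CPM at high and 292, 261 and 296 CPM at low temperature. High-temperature replicate 2 was far below the other high-temperature libraries, and the groups did not overlap. The log2 change was 0.67 ± 0.17 (edgeR adjusted p = 0.0118). The call was lost without low-temperature replicate 3 (edgeR adjusted p = 0.0615) and on unfiltered log2 FPKM (limma adjusted p = 0.0749). Cha06g005210 (sequence 6, 50415389 to 50422049, minus strand) had 83.7, 53.6 and 67.1 CPM against 96.3, 90.3 and 104 CPM. Its log2 change was 0.51 ± 0.15 (edgeR adjusted p = 0.0254). The call was lost when high-temperature replicate 3 or any 1 low-temperature library was left out, with an adjusted p of up to 0.123. It was also lost in each fit on log2 FPKM (limma adjusted p of 0.055 to 0.091). Cha09g009280 is annotated with the KH domain and no zinc finger and had 7.24 ± 0.678 and 10.04 ± 2.51 CPM, with overlapping groups (edgeR adjusted p = 0.157).

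**Figure D3:**
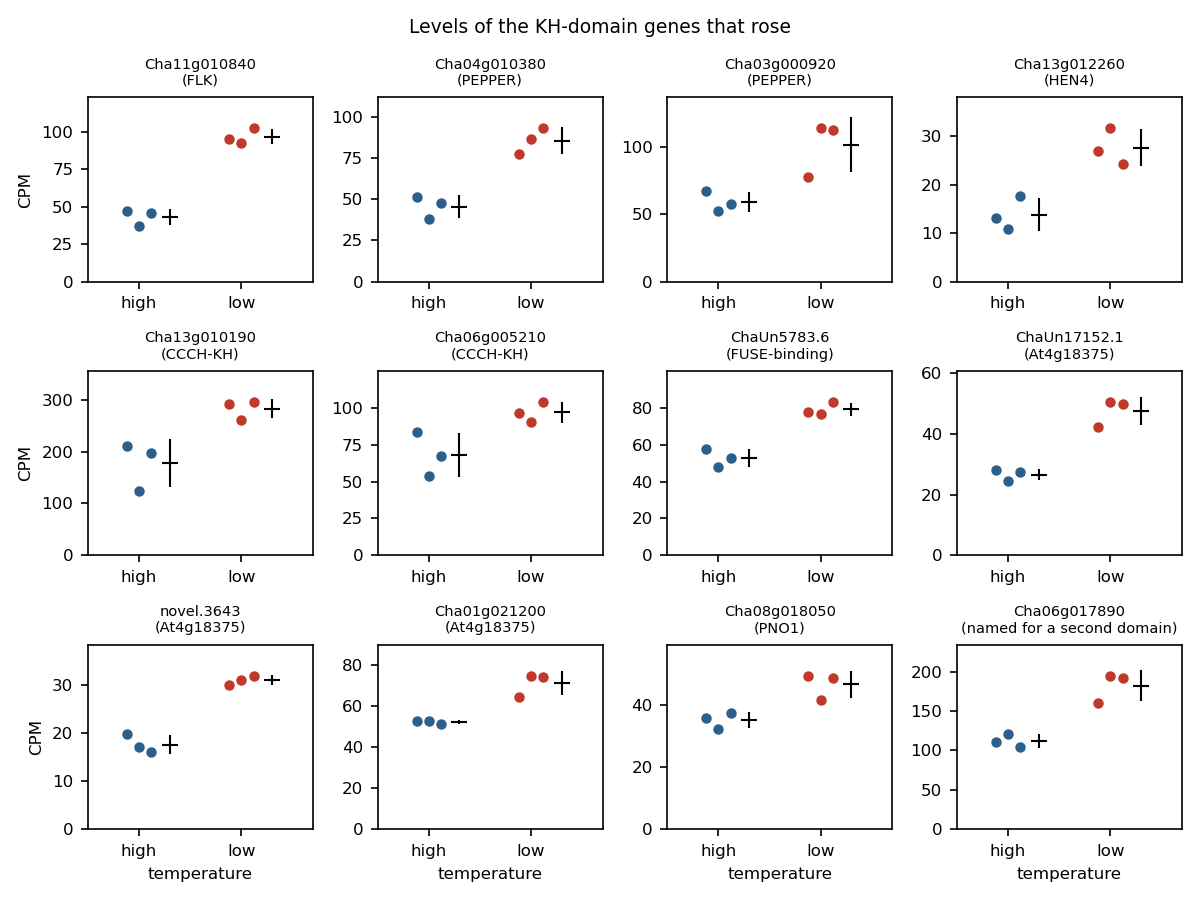
Levels in CPM (vertical axes from 0, each with its own scale) of the 12 KH genes that rose, with 1 point per library and the mean with its SD beside the points of each temperature. In every panel the 3 low-temperature points lie above the 3 high-temperature points, as for the FLK gene Cha11g010840, whose highest high-temperature library was at 47.2 and lowest low-temperature library at 92.6 CPM.

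A group of 5 members is named for far upstream element-binding proteins, which in human cells bind AU-rich elements of messenger RNA and steer its decay and splicing. Of these, 1 rose. ChaUn5783.6 had 57.8, 48.2 and 52.9 CPM at high and 77.7, 76.6 and 83.3 CPM at low temperature, without overlap, a log2 change of 0.58 ± 0.13 (edgeR adjusted p = 0.00429). The other members of the group had log2 changes between 0.24 and 0.34 that did not pass the test. Cha12g005880, the most abundant of them, had 217, 152 and 249 CPM against 258, 230 and 244 CPM, and its groups overlapped because high-temperature replicate 3 was above the lower low-temperature libraries. In Cha13g001130 the high-temperature libraries had 171, 118 and 178 CPM and the low-temperature libraries 195, 180 and 191 CPM, so that the groups were only just apart. ChaUn5783.6 held 7.5% ± 0.994 and 9.01% ± 0.299 of the group's summed level per length at high and low temperature (SD, n = 3).

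The name KH domain-containing protein At4g18375, an Arabidopsis locus label without a stated function, was given to 7 members. All 7 were tested and 3 rose. ChaUn17152.1, a short model of 582 coding bases, rose from 28.0, 24.4 and 27.5 CPM to 42.2, 50.6 and 49.8 CPM, a log2 change of 0.84 ± 0.14 (edgeR adjusted p = 0.000572). An unannotated locus (sequence 13, 7966265 to 7966961, plus strand, 601 bases) rose from 19.8, 17.2 and 16.0 CPM to 29.9, 31.1 and 32.0 CPM, a log2 change of 0.81 ± 0.15 (edgeR adjusted p = 0.00115). Both changes were called in all 17 alternative settings. Both loci are short, and whether they share reads with each other or with a longer copy was not tested. Cha01g021200 (sequence 1, 190328872 to 190334795, plus strand) rose less, from 52.9, 52.8 and 51.3 CPM to 64.4, 74.8 and 74.0 CPM. Its log2 change was 0.44 ± 0.13 (edgeR adjusted p = 0.0203). It lost its call without high-temperature replicate 3 or low-temperature replicate 2 or 3, and with scaling by library totals (edgeR adjusted p = 0.0564). The locus at 145496854 to 145500936 of sequence 9 had 23.8 ± 2.47 and 28.8 ± 2.60 CPM with overlapping groups. The remaining members, ChaUn5614.1 and 2 unannotated loci, stayed between 0.240 and 2.27 CPM in every library. The largest estimate among them, 1.08 ± 0.55 for a locus of 341 bases, did not pass the test (edgeR adjusted p = 0.189).

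PNO1, known from yeast and animals as an assembly factor of the small ribosomal subunit, is the name of 2 members. Cha08g018050 (sequence 8, 147845877 to 147846944, plus strand) had 35.9, 32.4 and 37.5 CPM at high and 49.5, 41.7 and 48.9 CPM at low temperature. The log2 change of 0.41 ± 0.14 was close to the threshold (edgeR adjusted p = 0.0456). Leaving out any of the 6 libraries ended the call, with an adjusted p of up to 0.173, as did the replicate block (0.0557). The call was lost in 13 of 17 alternatives, among them scaling by upper quartile or library totals and the fits on log2 FPKM. ChaUn8137.1 had 15.4, 17.04 and 10.8 CPM against 17.6, 19.6 and 19.4 CPM, a log2 change of 0.39 ± 0.18 that did not pass (edgeR adjusted p = 0.155, and 0.0421 without high-temperature replicate 2). The share of Cha08g018050 in the summed level was 65.3% ± 6.82 and 65.4% ± 3.15 (exact two-sided permutation p = 1).

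BTR1, which in Arabidopsis binds the RNA of tomato mosaic virus and limits its multiplication, is the name of 2 members, and neither passed the test. Cha08g007010 had 35.2, 35.1 and 37.3 CPM at high and 38.3, 41.6 and 39.2 CPM at low temperature, a log2 change of 0.15 ± 0.13 (edgeR adjusted p = 0.485). Cha01g002270 had 35.6, 37.7 and 38.4 CPM against 34.8, 35.9 and 35.6 CPM, a log2 change of -0.07 ± 0.13 (edgeR adjusted p = 0.757). Their summed level was 73.1 ± 2.47 and 75.1 ± 2.20 CPM, a difference smaller than the SD between libraries. Cha08g007010 held 48.7% ± 0.767 of their level per length at high and 52.4% ± 0.784 at low temperature (exact two-sided permutation p = 0.1, the smallest possible, and 0.167 adjusted over 5 such shares).

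Models that join a KH domain to another named protein were 2. Cha06g017890 (sequence 6, 147968956 to 147981021, plus strand) is named for Casparian strip membrane protein 3 and carries both that family's membrane domain and the KH domain. It had 110, 121 and 104 CPM at high and 160, 195 and 192 CPM at low temperature, without overlap, a log2 change of 0.71 ± 0.14 (edgeR adjusted p = 0.00165). Cha09g009030 is named for the ethylene-responsive factor ERF021 and carries an AP2 DNA-binding domain beside the KH domain. It had 18.8, 18.0 and 21.4 CPM against 24.01, 26.1 and 25.9 CPM, a log2 change of 0.39 ± 0.15 that did not pass the test (edgeR adjusted p = 0.0813). Whether these are single genes or neighbours joined by the gene caller was not tested, so their counts may hold reads of a gene without a KH domain.

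A further 6 members have no protein name, and none of the 4 tested ones rose or fell. Cha03g005990, which also carries an RNA ligase-like domain, had 43.3, 59.5 and 42.8 CPM against 51.9, 41.2 and 37.3 CPM. Cha06g006380 had 27.7 ± 5.21 and 28.2 ± 1.62 CPM, and a locus of 896 bases on an unplaced sequence had 9.90 ± 0.460 and 9.75 ± 1.25 CPM. An unannotated locus on sequence 15 (27671928 to 27677827) had 2.70 ± 0.605 and 1.98 ± 0.428 CPM. The groups overlapped in all of these, and the log2 changes ran from -0.45 to 0.03.

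The KH domain is also named in the domain text of 13 gene models outside the KH_1 family, a set put together after the values were seen. Of 12 that were tested, 1 rose and 1 fell, with a median log2 change of -0.03. Cha15g010840, for the ribosomal protein S3-3 of the small subunit, had 378, 266 and 348 CPM at high and 454, 531 and 556 CPM at low temperature. The groups did not overlap, and the log2 change was 0.63 ± 0.16 (edgeR adjusted p = 0.0109), a call lost without low-temperature replicate 2 or 3. Another gene of that name, Cha06g005610, had 379 ± 9.13 and 393 ± 19.0 CPM and did not pass. Cha08g003380, for the branchpoint-bridging protein that recognises introns, had 20.3, 18.1 and 30.6 CPM against 12.9, 10.6 and 14.9 CPM. It was thus lower in the cold, by a log2 change of -0.85 ± 0.20 (edgeR adjusted p = 0.00745), a call lost without high-temperature replicate 3 or low-temperature replicate 2. The polynucleotide phosphorylase of the chloroplast, Cha13g003420, which trims plastid RNA, had 38.6 ± 9.67 and 52.8 ± 4.19 CPM and did not pass (edgeR adjusted p = 0.0575, and 0.0314 with the replicate block and 0.000519 without high-temperature replicate 2). Exosome caps of the RRP4 and RRP40 kind and GTPases of the ERA and ERG kind had log2 changes between -0.42 and 0.14, none of which passed.

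Other RNA-related genes were counted in 14 lists with 617 distinct gene models, without KH_1 members, to set the KH genes beside them. Differences between the lists were not tested. In the RRM_1 family, named for a common RNA-binding domain, 47 of 249 tested genes rose and 23 fell (median 0.10). Its strongest changes were falls, of the splicing factor SR45a (Cha11g007040, from 118 ± 13.7 to 31.6 ± 3.13 CPM) and of the gene Cha12g004440 (from 48.9 ± 3.51 to 19.0 ± 2.68 CPM), named for a binding partner of ACD11. DEAD-box helicases, which unwind RNA, had 17 of 70 higher and 1 lower (median 0.22). They were led by the RH31 gene Cha07g001640, from 9.81 ± 1.95 to 43.8 ± 6.03 CPM, and the chloroplast RH3 gene ChaUn6272.4, from 47.7 ± 7.33 to 115.5 ± 14.0 CPM. Of glycine-rich RNA-binding and cold shock proteins, known as RNA chaperones in the cold, 7 of 24 rose (median 0.39). None of them fell in edgeR or DESeq2, 1 was lower at an unadjusted p under 0.05, and 1 fell without low-temperature replicate 1. The GRP2A locus outside the annotated genes had 386 ± 60.1 and 815 ± 76.5 CPM, and Cha04g011460 had 316 ± 54.7 and 595 ± 69.7 CPM, both called.

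**Figure D4:**
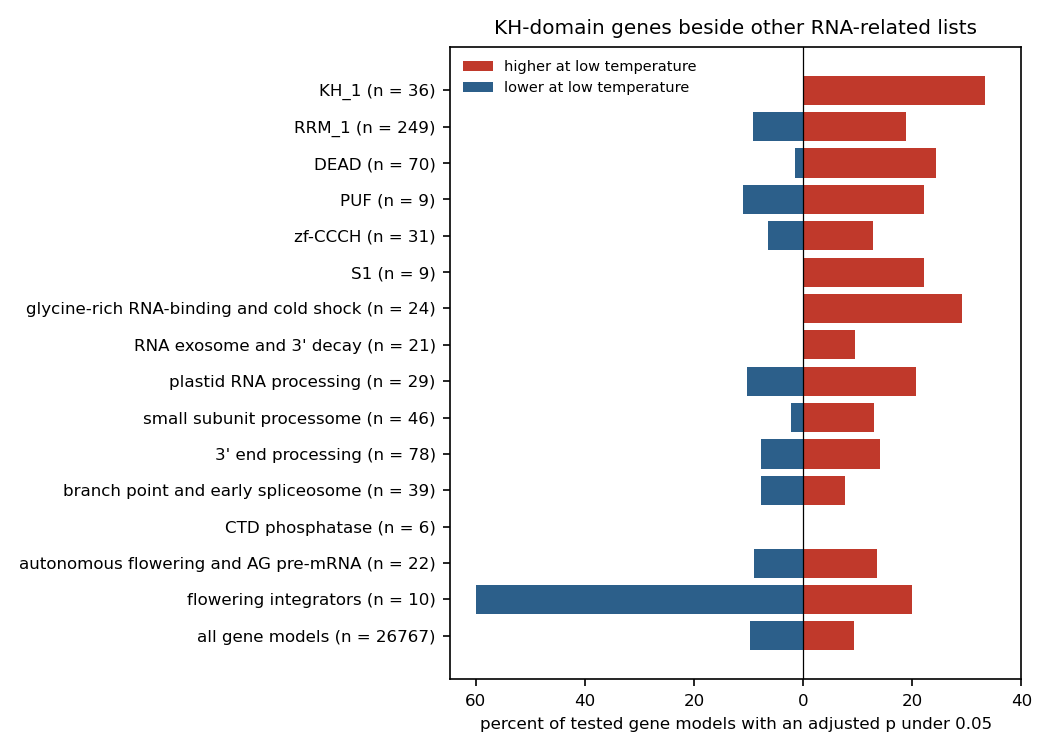
Share of tested gene models with an adjusted p under 0.05 (horizontal axis, percent), higher at low temperature to the right and lower to the left, for KH_1 genes, 14 related lists and all gene models, with the number tested beside each name. KH_1 genes stand at 33.3% higher and 0% lower, all gene models at 9.27% and 9.65%.

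These counts moved when a library was left out, as did those of all gene models. Over all gene models 1267 were higher and 1339 lower without low-temperature replicate 2, against 2480 and 2582 with all libraries. Without low-temperature replicate 3 these were 1344 and 1337. Without low-temperature replicate 2 the RRM_1 family had 29 higher and 12 lower, and without low-temperature replicate 3 it had 25 and 15. The helicases had 11, 11 and 10 higher without high-temperature replicate 3 and low-temperature replicates 2 and 3, and 0 lower without these or low-temperature replicate 1. The glycine-rich list had 4 higher without low-temperature replicate 3 and 11 without high-temperature replicate 1. Smaller families were the PUF proteins (2 of 9 higher and 1 lower, with 4 higher without high-temperature replicate 2 and 1 higher without high-temperature replicate 1 or 3 or low-temperature replicate 2 or 3), the CCCH zinc fingers (4 of 31 higher and 2 lower) and the S1 proteins (2 of 9 higher, 0 lower in edgeR, in DESeq2 and at an unadjusted p under 0.05). In the S1 family ChaUn10293.2, for the alpha subunit of the initiation factor eIF2, had 16.2 ± 1.18 and 32.9 ± 2.97 CPM. The chloroplast ribosomal protein S1 gene Cha05g001970 had 202 ± 9.11 and 283 ± 34.7 CPM and was not called without high-temperature replicate 1 or 3 or low-temperature replicate 2 or 3, each of which left 1 gene of the family called. Pumilio homologs went both ways, Cha02g013600 with a log2 change of 0.75 ± 0.17 and Cha08g005590 with -0.61 ± 0.20. The latter was not called without high-temperature replicate 2 or any low-temperature library. Among CCCH zinc fingers Cha09g016370 had 6.02 ± 0.282 and 11.7 ± 0.604 CPM. Without low-temperature replicate 2 or 3 the CCCH list had 2 higher, and it had 1 lower when any 1 library but high-temperature replicate 2 was left out.

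Lists of flowering genes, matched on descriptions, gave mixed counts. Of 22 tested genes of the autonomous flowering pathway and of AGAMOUS processing, 3 were called higher and 2 lower (median 0.14), with 1 in each direction without low-temperature replicate 2 or 3 and 1 lower without high-temperature replicate 1 or low-temperature replicate 1. Cha09g010350, for the flowering regulator FPA, had 16.5 ± 2.42 CPM at high and 27.2 ± 2.18 CPM at low temperature (log2 change 0.72 ± 0.16, edgeR adjusted p = 0.00454). Cha08g005130, for HESO1, which adds uridines to small RNAs and was matched through the HEN1 in its description, had 37.1 ± 7.47 and 20.6 ± 1.19 CPM and was called lower. A list of flowering integrators, which collect the flowering signals, and related genes had 2 of 10 higher and 6 lower (median -0.54). It had 4 lower without low-temperature replicate 2 and 1 lower without low-temperature replicate 3. The list was matched on descriptions, and genes that promote and genes that repress flowering were not counted apart. Its counts therefore give no direction for flowering. Cha06g007350, for the floral activator SOC1, had 25.5, 30.7 and 29.5 CPM against 8.07, 9.84 and 8.04 CPM (log2 change -1.72 ± 0.17, edgeR adjusted p = 2.99e-06). The AGL8 homolog Cha03g011550, a MADS-box gene, had 0.408, 0.660 and 0.657 CPM against 16.1, 14.5 and 11.9 CPM (edgeR adjusted p = 1.97e-08). The groups of both genes were far apart, in opposite directions.

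Lists of RNA processing genes were counted likewise. In the list of the small subunit processome, where ribosomal RNA is first cut, 6 of 46 were called higher and 1 lower (median -0.04), with 2 or 3 higher without high-temperature replicate 3 or any low-temperature library and 0 lower without high-temperature replicate 3 or low-temperature replicate 2 or 3. ChaUn3811.3 and Cha08g018360, for proteins of the U3 particle, had 52.3 ± 3.05 and 116 ± 10.2 CPM and 16.5 ± 2.47 and 32.6 ± 1.73 CPM at high and low temperature. In the exosome and RNA decay list 2 of 21 were called higher and none lower by edgeR and by DESeq2, with 3 higher and 0 lower at an unadjusted p under 0.05. The exosome genes ChaUn19480.1 (RRP42) and Cha12g006310 (RRP46) had 45.6 ± 9.09 and 64.8 ± 7.60 CPM and 6.22 ± 0.444 and 9.58 ± 0.549 CPM, and both calls were lost without high-temperature replicate 3 or any low-temperature library, and that of RRP46 also when either of the other libraries was left out. In 3' end processing 11 of 78 were called higher and 6 lower, with 5 and 3 without low-temperature replicate 2, 2 and 3 without low-temperature replicate 3 and 6 and 4 without high-temperature replicate 3. There Cha14g003150, for a partner of poly(A)-binding protein, had 69.7 ± 3.25 and 110.2 ± 7.83 CPM, and Cha02g015860, for a poly(A)-binding protein, 53.0 ± 2.44 and 33.5 ± 2.64 CPM. In the early spliceosome 3 of 39 were called in each direction, with 1 lower without high-temperature replicate 3 or low-temperature replicate 2 and 5 lower without low-temperature replicate 1. Cha13g005580, for the small subunit of U2AF and also in the CCCH list, had 64.7 ± 3.84 and 24.8 ± 2.18 CPM, and Cha01g003460, for a subunit of SF3B, had 59.1 ± 8.51 and 90.9 ± 12.3 CPM and was not called without low-temperature replicate 3.

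In plastid RNA processing 6 of 29 were called higher and 3 lower, 1 lower without high-temperature replicate 1 or 3 or low-temperature replicate 1 and 0 lower without low-temperature replicate 2 or 3, in a list whose wording also let in antenna proteins named CP29. ChaUn6942.1, named for a mitochondrial polynucleotide phosphorylase and thus for a class that carries a KH domain in other species, had 7.21, 8.04 and 7.63 CPM against 23.8, 27.1 and 28.1 CPM (log2 change 1.79 ± 0.17, edgeR adjusted p = 1.83e-06). Cha10g006870, a chloroplast ribonucleoprotein of the RRM class, had 183 ± 35.7 and 455 ± 21.7 CPM and was called higher. None of 6 phosphatases of the polymerase tail, which work with a KH protein in Arabidopsis, was called by edgeR or DESeq2, with 2 higher and 0 lower at an unadjusted p under 0.05. Among them Cha10g004180 had 17.5 ± 6.55 and 25.2 ± 3.60 CPM with overlapping groups (edgeR adjusted p = 0.104, and 0.0298 with the replicate block and 0.00063 without high-temperature replicate 2), and Cha07g011770 had 20.3 ± 1.31 and 25.5 ± 1.45 CPM (edgeR adjusted p = 0.131).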

How the data were processed

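RNA of young shoots was sequenced after an Illumina library kit, per the labels' protocols. The authors deposited raw counts per gene model and, for the same models, FPKM values. The submitters' processing notes list CASAVA 1.8.2, fastp and R 4.1.0, besides the aligner HISAT2 2.0.5, the counter featureCounts 1.5.0-p3 and the package DESeq2 1.20.0, with no settings. Genome build and strand setting: not given in the sources used here. Reads of an antisense partner could therefore be part of a count. Deposited FPKM equal the count over gene length and over a divisor of 0.977 to 1.13 times the library total. Lengths of annotated models are all multiples of 3 and thus coding lengths. Names, domains and coordinates are those of the tables, "sequence 3" being the assembly sequence of that number, and no nucleotide or protein sequences were used here.

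The test was edgeR 4.0.16 under R 4.3.3 (robust quasi-likelihood, TMM, filterByExpr with a minimum count of 10) over all gene models, with Benjamini-Hochberg adjustment and calls at an adjusted p under 0.05. CPM are TMM-scaled, and each SE is the log2 change over the root of F. The members and lists were chosen with earlier results of these data known. Genes were named by a rule (all members called, the 5 most abundant, members with a named role in ribosome assembly, flowering or stress, and the 2 smallest p of each list), and other members were added to account for all 40. Lists were matched on the whole description, markers included (cinnamoyl-CoA reductases entered the vascular list in this way), and groups by protein name were formed after the files were read. Families KH_2 and dsrm held 0 gene models. Alternatives were other scalings and count filters, a replicate block, DESeq2 1.42.0, limma 3.58.1 on log2 FPKM, an adjusted p under 0.01 and each library left out. In simulated counts for this comparison (26767 gene models, 50 genes per fold) the share found was 14% at 1.5-fold, 68% at 2-fold, 98% at 4-fold and 100% at 8-fold. Changed genes were a far smaller part there than the 18.9% called in the data, and were drawn above a low CPM limit. The adjustment was thus stricter in the simulation, and these shares may be too low for the data. No replicates were merged, as their mean chi-square per gene of 5.27 to 24.6 was above the value near 1 that sampling noise gives. Floors of 3 counts cover counting error only.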

Additional observations from a re-analysis of the deposited data

How the results depend on the processing

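KH genes called higher numbered 8 to 13 over all 17 alternatives, and 8 to 13 when each library was left out, against 12, and 0 were called lower in each of them. Of the 12, 8 were called in every alternative, namely Cha11g010840, Cha04g010380, Cha03g000920, Cha13g012260, ChaUn5783.6, ChaUn17152.1, Cha06g017890 and the locus on sequence 13. Scaling by library totals gave 10, with the median of all gene models at -0.06 and that of the tested KH genes at 0.34. The replicate block gave 11 KH genes, losing Cha08g018050. Deviations of libraries with the same number correlated at -0.01, 0.04 and -0.01. Pairs with unlike numbers ran from -0.03 to 0.04. With 3 libraries a group, a small shared effect could go unseen, and whether equal numbers mark a pairing was not tested. With unfiltered log2 FPKM, 1474 gene models were called higher and 1506 lower, against 2480 and 2582. At an adjusted p under 0.01 these were 1178 and 1245, and the related lists had 52 higher and 24 lower, against 90 and 40. Leaving out 1 library gave 1267 to 2892 gene models higher and 1337 to 2729 lower, and 47 to 106 and 18 to 44 in the related lists. Low-temperature replicates 2 and 3 gave the lowest numbers, 55 and 19 and 47 and 18 in the related lists. Fewer libraries lower the power, and other causes were not tested. No named gene changed direction past the threshold. For genes outside KH_1, lost calls are given above for left-out libraries only. Some of these calls were lost in other alternatives too, as that of Cha08g003380 was on log2 FPKM. With 3 libraries a group at this depth and spread, 14% of simulated 1.5-fold changes were found. The simulation held far fewer changed genes than were called in the data, so this share may be too low. The part of depth alone was not tested.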
